A study of Mus musculus with 4 samples.

Results

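Extracellular antagonists of bone morphogenetic protein (BMP) and activin ligands were measured by UMI counts in single mesenchymal stromal cells (MSC) of mouse gut. The members were 7 of the 28692 genes in the count tables, taken by symbol: Grem1, Chrd, Chrdl1, Nog, Fst, Fstl1 and Bmper. A UMI is a molecular barcode that lets each captured transcript be counted once. The cells came from the lamina propria of small intestine and colon of untreated female C57BL6/Nrj mice aged 8 to 10 weeks, with 2 libraries per intestine from 2 independent experiments, each of 3 mice that were pooled. The muscularis externa had been removed, and cells were sorted as live Itgb1+ cells that lacked CD45, Ter119, CD31, BP3, EpCAM and L1CAM, so that blood, endothelial, epithelial and glial cells were selected against. Values per library are given in the order small intestine replicate 1, small intestine replicate 2, colon replicate 1 and colon replicate 2.

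BMP ligands bind type I and type II serine/threonine kinase receptors, which phosphorylate SMAD proteins that drive target genes such as the Id genes. Antagonists bind the ligand outside the cell. Gremlin 1 (Grem1), noggin (Nog), chordin (Chrd) and chordin-like 1 (Chrdl1) mainly block BMPs, follistatin (Fst) binds activins with high affinity and some BMPs, Bmper can both block and promote BMP signals, and follistatin-like 1 (Fstl1) is a secreted glycoprotein that binds BMP4. In the gut, stromal antagonists near the crypt base are known to shield stem cells from BMP, while BMP ligands made by fibroblasts near the epithelium favour differentiation.

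Each member had a single gene row. In GRCm38 (GENCODE vM21), Grem1 is at chr2:113746164-113758646 on the minus strand, Chrd at chr16:20733127-20742384 on the plus strand, Chrdl1 at chrX:143285674-143394262 on the minus strand, Nog at chr11:89300638-89302332 on the minus strand, Fst at chr13:114452290-114458951 on the minus strand, Fstl1 at chr16:37776873-37836514 on the plus strand and Bmper at chr9:23223076-23485200 on the plus strand. Chrd overlaps Thpo, a counted gene on the opposite strand, and whether counting used strand is not given in the sources used here. The sequence upstream of Grem1 and Chrd is shown because these were the antagonists with opposite class patterns below, Grem1 low and Chrd high in PDGFRahi FB. Each line holds the 250 bases before the RefSeq start (GRCm38.p6), 5′ to 3′ on the gene's own strand, chr2:113758649-113758898 for Grem1 and chr16:20732877-20733126 for Chrd. Capitals mark GGCGCC, a palindromic GC-rich element of the kind that BMP SMADs are known to bind.
Grem1: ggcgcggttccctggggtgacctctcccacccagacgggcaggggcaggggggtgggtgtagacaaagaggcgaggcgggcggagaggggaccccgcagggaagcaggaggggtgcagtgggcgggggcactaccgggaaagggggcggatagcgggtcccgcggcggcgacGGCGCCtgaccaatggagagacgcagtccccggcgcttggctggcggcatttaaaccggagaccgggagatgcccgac
Chrd: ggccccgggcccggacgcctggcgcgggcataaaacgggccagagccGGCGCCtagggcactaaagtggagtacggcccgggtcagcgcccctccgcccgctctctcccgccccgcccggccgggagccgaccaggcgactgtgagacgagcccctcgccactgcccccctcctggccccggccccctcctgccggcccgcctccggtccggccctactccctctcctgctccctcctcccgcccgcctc
The letters GGCGCC occurred once in each, beginning 78 bases before the Grem1 start and 203 bases before the Chrd start. A promoter window was found for 4 of the 7 members, and the windows of Fstl1 and Bmper did not hold these letters. Of 32851 promoter windows of the same length, 3149 (9.59%) held GGCGCC, so the match is a description of the windows and not a site.

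Depth was 14341443 to 52269372 UMIs per library. After filters, 30505 of 34983 barcodes were kept as cells, and 18955 of these (62.1%) were placed by marker genes in 6 classes, namely PDGFRahi FB (fibroblasts), CD81+ FB, Fgfr2+ FB, Igfbp5+/CD90+ FB (Igfbp5+ FB in the small intestine and CD90+ FB in the colon), smooth muscle cells (SMC) and pericytes. No member was among the markers. Median UMIs per cell were 2723 to 8835.5, lower in both replicate 2 libraries, and a library pair shared 0 to 69 barcodes. A class held 37 to 3025 cells per library, and 17.0% to 26.6% of placed cells per library lay within 0.5 of the score of the next class, so that neighbouring classes are ranges rather than sharp types. All 5 PDGFRahi FB markers, 4 of 6 CD81+ FB markers, 3 of 4 Fgfr2+ FB markers, 3 of 5 Igfbp5+/CD90+ FB markers, 4 of 5 SMC markers and 5 of 6 pericyte markers were highest in their own class in all 4 libraries. Cells were placed by these same markers, so the gate largely fixes these counts, which are no independent check of the classes. Levels below are CPM, the UMIs of a gene per 1000000 UMIs, summed over the cells of a class in a library.

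**Figure D1:**
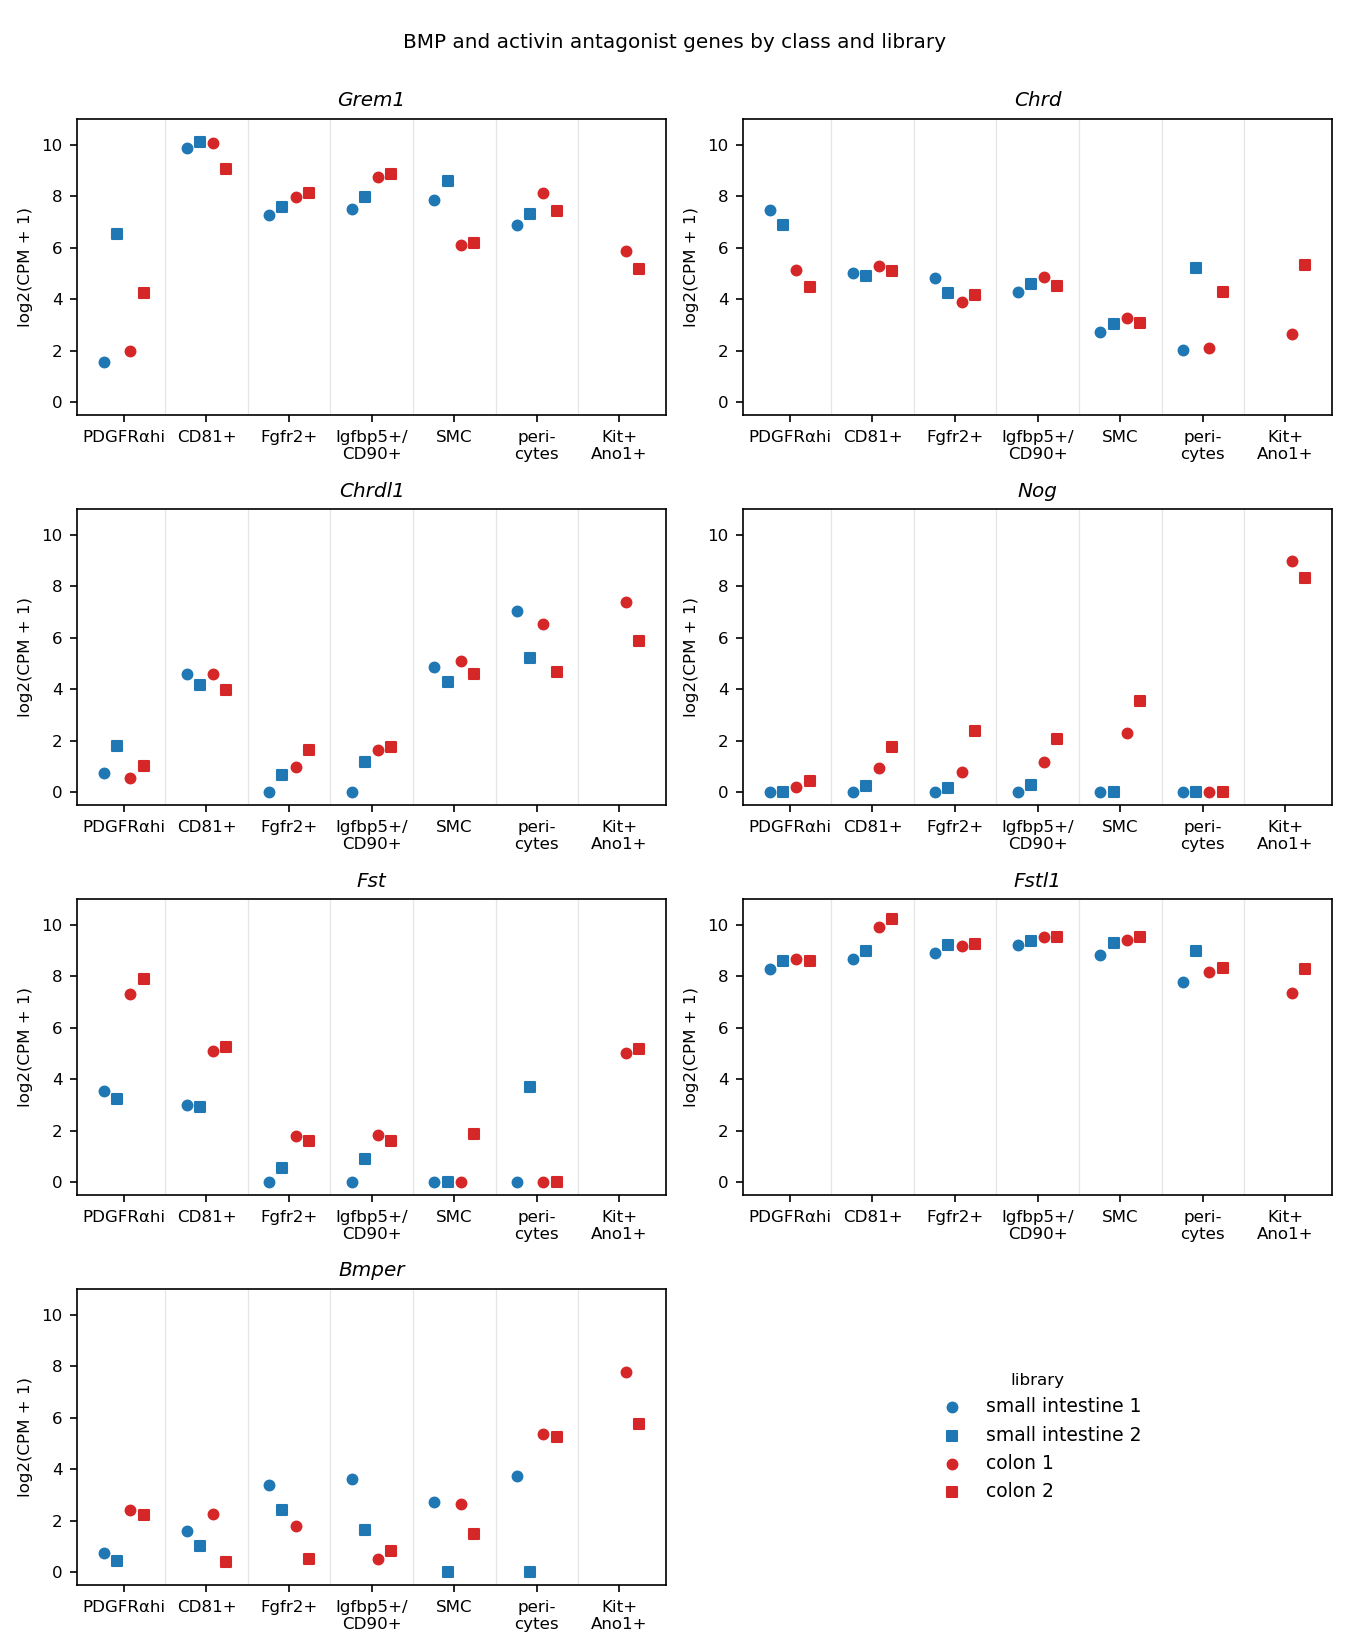
Level of each of the 7 members, as log2(CPM + 1), in the 6 MSC classes and, for the colon, in Kit+ Ano1+ cells, with 1 point per library, coloured by intestine and shaped by replicate (circles replicate 1, squares replicate 2). With cells placed as above, Grem1 was highest in CD81+ FB in all 4 libraries, Fst in PDGFRahi FB of both colon libraries, and Nog was at or near 0 in all 6 classes of the small intestine.

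The members differed in the class that carried them. CD81+ FB carried the most Grem1, PDGFRahi FB carried Chrd in the small intestine and Fst in the colon, and pericytes, SMC and CD81+ FB carried Chrdl1. Each class was compared with the mean of the other 5 by edgeR's quasi-likelihood test on library sums, with library as a block, and a call required an adjusted p under 0.05 with a change of more than 1 on the log2 scale. Of the 7 members, 6 passed the low-count filter and Nog did not. The calls were 4 of 6 members in PDGFRahi FB, where 12.3% of all genes tested were called, and 4 of 6 in CD81+ FB, where 12% were called. They were 1 of 6 in Fgfr2+ FB (5.77% of all genes), 1 of 6 in Igfbp5+/CD90+ FB (5.49%), 1 of 6 in SMC (14.3%) and 3 of 6 in pericytes (14.8%). Counting only calls in the upward direction, these were 2 of 6 in PDGFRahi FB (6.3% of all genes), 4 of 6 in CD81+ FB (6.73%), none in Fgfr2+ FB (4.08%) or Igfbp5+/CD90+ FB (3.57%), 1 of 6 in SMC (7.09%) and 2 of 6 in pericytes (8.75%).

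**Figure D2:**
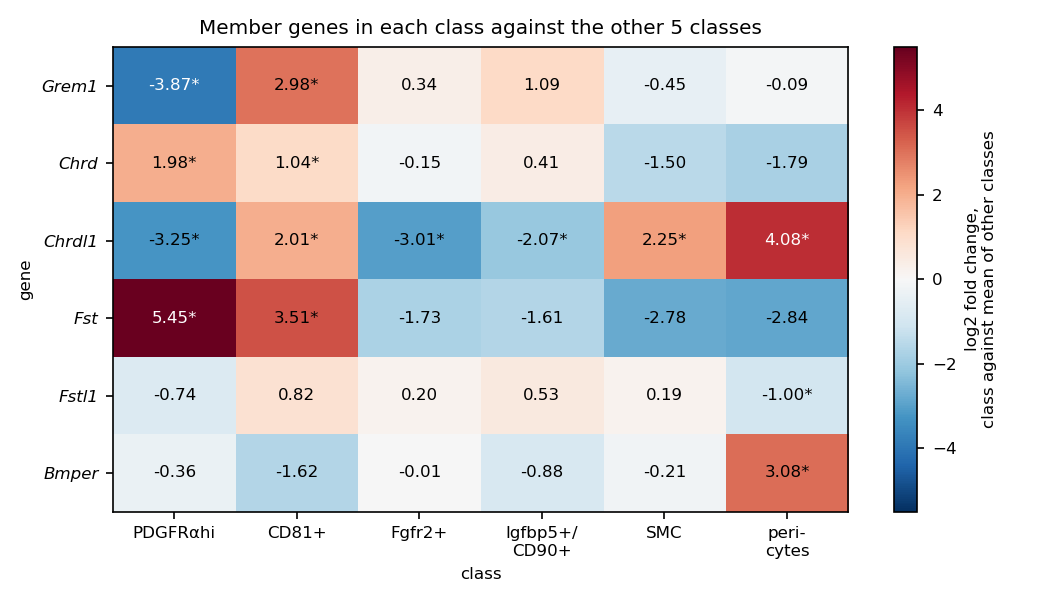
Log2 fold change of each tested member in a class against the mean of the other 5 classes, by edgeR's quasi-likelihood test over 4 libraries, as a heat map with genes in rows, classes in columns and an asterisk on each called value. The highest values were those of Fst in PDGFRahi FB (5.45) and Chrdl1 in pericytes (4.08), and the lowest that of Grem1 in PDGFRahi FB (-3.87).

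Grem1, which blocks BMP2 and BMP4, was measured at 936, 1102, 1083 and 527 CPM in CD81+ FB. Next in the small intestine were SMC, at 228 and 382 CPM, and next in the colon Igfbp5+/CD90+ FB, at 431 and 468 CPM. In colon replicate 2 the gap between CD81+ FB and the next class was 1.13-fold, against 2.51-fold to 4.10-fold in the other libraries, so in that library these neighbours lay closer to each other than the 2 colon libraries of CD81+ FB did. Their order in that library also turned with the gate. With a larger margin between the best and the second class CD81+ FB had 452 CPM and Igfbp5+/CD90+ FB 475 CPM. With unsupervised clusters in place of the gate they had 685 and 423 CPM. Igfbp5+/CD90+ FB held 178 and 250 CPM in the small intestine and Fgfr2+ FB 154, 192, 249 and 277 CPM. Across the 4 libraries the log2 fold change of CD81+ FB over the mean of the other classes was 2.98 (SE 0.47, adjusted p = 0.00012).

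Far less Grem1 was found in PDGFRahi FB, the fibroblasts that lie under the epithelium, at 1.99, 92.6, 3.01 and 18.1 CPM, and the class differed from the mean of the others by -3.87 on the log2 scale (SE 0.75, adjusted p = 0.00087). The replicate 2 libraries were above the replicate 1 libraries. In small intestine replicate 2, the 268 UMIs came from 65 of 1237 cells, and 4 cells held 28.7% of them. With a larger margin between the best and the second class that library fell to 32.7 CPM, and to 11.7 CPM with unsupervised clusters in place of the gate.

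The share of CD81+ FB with a Grem1 UMI was 82.7% and 78.0% in the small intestine and 53.8% and 30.6% in the colon. With each cell thinned to 2000 UMIs, which kept 270 of 277, 1673 of 1902, 120 of 132 and 1416 of 1629 cells, it was 65.6%, 71.7%, 45.8% and 26.6%. For comparison, 0.901% of 333 endothelial cells in small intestine replicate 1 (median 4496 UMIs, against 8937 in its CD81+ FB) and 0.426% of 235 in colon replicate 1 (median 5101, against 8099.5) had a Grem1 UMI. Colonic CD81+ FB were the more uneven: the top 10% of cells held 60.2% and 72.9% of the class's Grem1 UMIs in the colon and 37.2% and 35.2% in the small intestine. CD81+ FB supplied 63.8% and 41.5% of all Grem1 UMIs in the small intestine libraries and 23.4% and 23.7% in the colon libraries, shares that also follow how many cells of each class were captured. Cells placed in no class held 17.2% and 37.7% in the small intestine and 27.8% and 40.4% in the colon, there more than CD81+ FB.

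Within CD81+ FB, Grem1 also differed between cells divided by a pair of markers of this class. The division was chosen after the levels had been seen, and both markers also served in the gate, so no test is given. CD81+ FB with a UMI of Ackr4, an atypical chemokine receptor, and none of Pi16, a peptidase inhibitor, had 1121, 1190, 1930 and 1531 CPM of Grem1. Cells with a Pi16 UMI and none of Ackr4 had 488, 657, 649 and 189 CPM, and those with both had 673, 656, 539 and 214 CPM. Cells with neither had 868, 1289, 947 and 891 CPM, in small intestine replicate 2 above the Ackr4-only cells. In each library the cells without a Pi16 UMI were thus above those with one, whether or not they had Ackr4. Fstl1 ran the other way between the first 2 groups, at 368, 447, 583 and 826 CPM in Ackr4-only cells and 718, 798, 1197 and 1395 CPM in Pi16-only cells. Fst stood at 8.33, 4.22, 2.69 and 9.13 CPM in Ackr4-only cells and at 0, 3.58, 135 and 44.6 CPM in Pi16-only cells. It was thus higher in Pi16-only cells in both colon libraries and in neither small intestine library. The 135 CPM came from 29 UMIs. Pi16-only cells numbered 17 and 33 in the replicate 1 libraries.

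**Figure D3:**
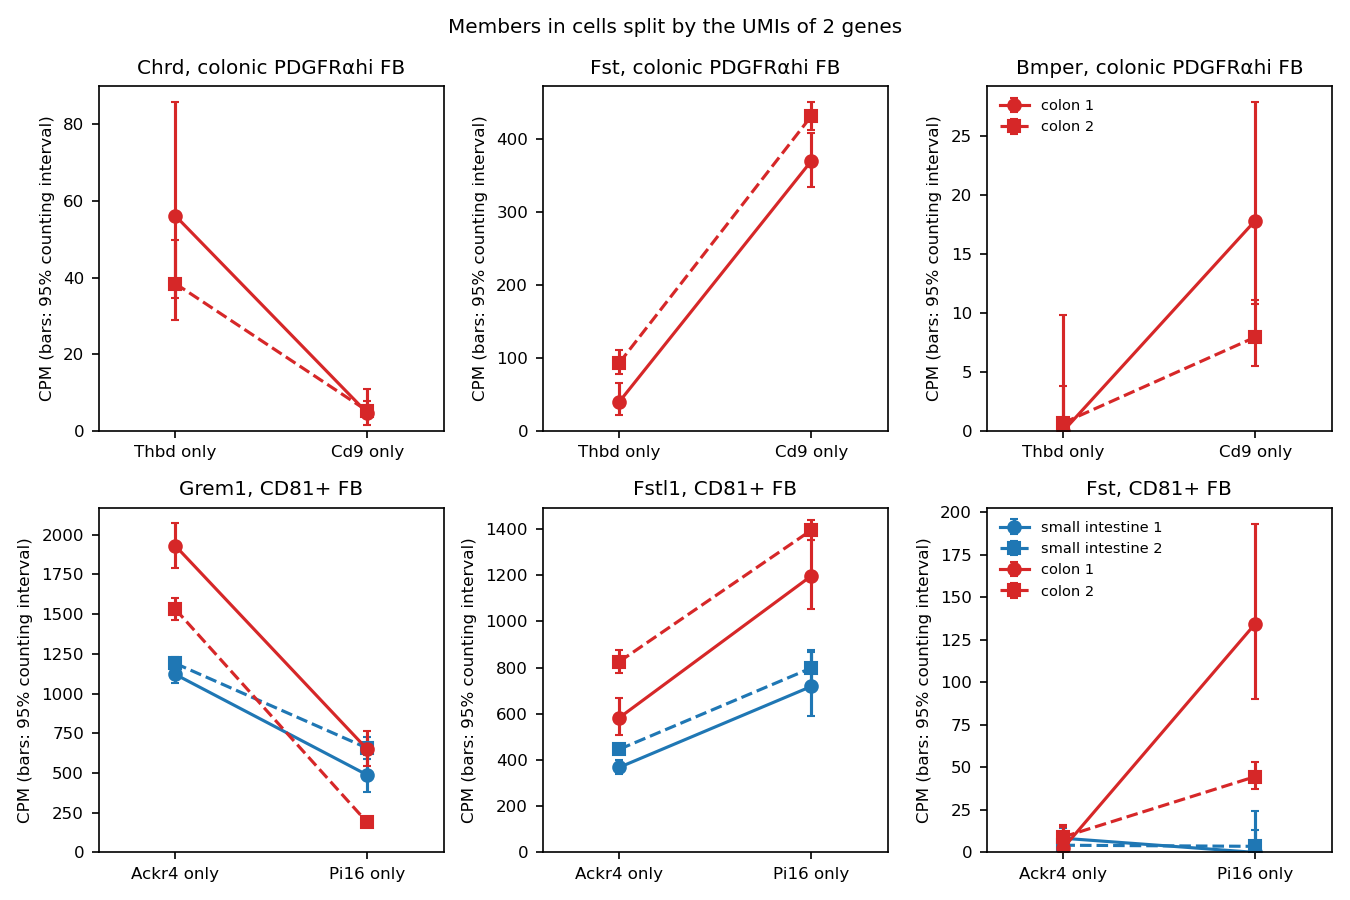
Members in CD81+ FB with a UMI of Ackr4 only or Pi16 only (4 libraries) and in colonic PDGFRahi FB with a UMI of Thbd only or Cd9 only (2 libraries), in CPM on a linear axis that starts at 0, with lines joining the values of a library and bars for the 95% counting interval, which covers counting error only. Grem1 was higher in Ackr4-only cells in all 4 libraries, and in colonic PDGFRahi FB Fst was higher and Chrd lower in Cd9-only cells in both libraries.

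SMC, counted here as one of the classes, also held Grem1. The values of 228 and 382 CPM in the small intestine lay above 68.4 and 71.5 CPM in the colon, without overlap. The colon to small intestine difference was -2.08 on the log2 scale (SE 0.36, adjusted p = 0.063), not called by the edgeR test as reported. It was called under 8 of 12 alternatives, among them DESeq2 (adjusted p = 0.0009) and other edgeR fits, and the value ran from -2.40 to -1.61. Few SMC carried it: 6 of 59 cells held 85.4% of the UMIs in small intestine replicate 1, 12 of 117 cells held 81.0% in replicate 2, and in colon replicate 1 a single cell held 76 of the 142 UMIs. Pericytes had 116, 155, 275 and 173 CPM, from 7, 6, 15 and 8 cells. Neither SMC (-0.45, SE 0.62) nor pericytes (-0.09, SE 0.64) were called for Grem1 against the other classes.

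Chrd, which sequesters BMPs and is cleaved by tolloid proteases, was highest in small intestinal PDGFRahi FB. The class had 177 and 119 CPM in the small intestine and 33.7 and 21.3 CPM in the colon, and the other 3 FB classes lay between 13.8 and 38.2 CPM in all libraries. SMC had 5.57 to 8.67 CPM and pericytes 3.05 to 35.9 CPM, the latter from at most 3 UMIs per library. PDGFRahi FB exceeded the mean of the other classes by 1.98 on the log2 scale (SE 0.34, adjusted p = 0.00026). In the colon PDGFRahi FB were not the highest class, since CD81+ FB had 38.2 and 33.0 CPM. CD81+ FB were called over the mean of the other classes by a small margin (1.04, SE 0.38, adjusted p = 0.046), a call kept under 2 of 12 alternatives, with adjusted p up to 0.31, and lost on leaving out any 1 of the 4 libraries (adjusted p = 0.064 to 0.19).

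A Chrd UMI was found in 67.9% and 23.4% of small intestinal PDGFRahi FB and in 25.0% and 8.23% of colonic ones. After thinning to 2000 UMIs, which kept 165 of 168, 784 of 1237, 575 of 580 and 2443 of 2577 cells, the shares were 27.3%, 20.4%, 5.57% and 4.95%, so both intestines separated at equal depth. In endothelial cells of small intestine replicate 1 the share was 0.601%, and 0 of 235 in colon replicate 1, which allows a share of up to 1.56% (exact binomial 95% interval). The drop of Chrd in PDGFRahi FB of the colon was -2.30 on the log2 scale (SE 0.35, adjusted p = 0.066) and was not called by edgeR. DESeq2 called it (-2.32, adjusted p = 9.4e-06), and over the 12 alternatives, 5 of which called it, the value ran from -2.58 to -2.004. Within replicate numbers, which coincide with the software version and the depth of the libraries, the small intestine exceeded the colon 5.26-fold and 5.55-fold.

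Whether the class contrast itself differed between intestines was tested by an interaction term, called at an adjusted p under 0.05. For Chrd in PDGFRahi FB the contrast in the colon minus that in the small intestine was -2.24 (SE 0.39, adjusted p = 0.00043), called under each of the 11 alternatives. Calls in PDGFRahi FB were 2 of 5 members with an estimate, against 7.38% of all genes, and Fst gave no estimate because it had no UMI in all libraries of an intestine in some classes.

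Fst was the member called between intestines. In PDGFRahi FB it was measured at 10.6 and 8.29 CPM in the small intestine and at 157 and 236 CPM in the colon, without overlap. The colon to small intestine log2 fold change was 4.55 (SE 0.41, adjusted p = 0.029), called at a log2 fold change beyond 1.5, and the ratios within replicate numbers were 14.8 and 28.5. Without small intestine replicate 2 the log2 fold change was 4.37 and the call was lost (adjusted p = 0.066). A Fst UMI was in 3.57% and 1.29% of small intestinal and 23.8% and 18.8% of colonic PDGFRahi FB, and in 1.21%, 1.02%, 10.4% and 14.0% after thinning. None of 333 endothelial cells in small intestine replicate 1 and none of 235 in colon replicate 1 had one, which allows up to 1.10% and 1.56%. Colonic PDGFRahi FB held 92.8% and 80.1% of all Fst UMIs of their libraries. Of the markers of interstitial cells of Cajal, Ano1 was at 1.32 and 1.38 CPM in small intestinal and at 70.2 and 52.3 CPM in colonic PDGFRahi FB, and Kit at 2.65, 2.42, 0.158 and 0.0912 CPM. Cells with UMIs of both genes were set apart only where their score for these 2 markers was above the score of every class. A cell of this class can thus hold both, and the part of such cells in the Fst values was not tested.

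Members called between intestines were 1 of 5 tested in PDGFRahi FB, where 1.21% of all genes were called, and 1 of 5 in CD81+ FB, where 0.658% were called, Fst in each case. CD81+ FB had 6.94 and 6.56 CPM of Fst in the small intestine and 33.5 and 37.5 CPM in the colon, a log2 fold change of 2.29 (SE 0.29, adjusted p = 0.048). The ratios within replicate numbers were 4.83 and 5.72, and the call was lost without small intestine replicate 1 (adjusted p = 0.058), small intestine replicate 2 (0.14) or colon replicate 2 (0.094), with doublets not removed (0.054) and with a larger gate margin (1.76, adjusted p = 0.11). A Fst UMI was in 12 of 277 and 30 of 1902 CD81+ FB of the small intestine and in 8 of 132 and 123 of 1629 of the colon. With the larger gate margin colonic CD81+ FB had 21.8 CPM, from 14 UMIs, and 35.1 CPM. The make-up of the class also differed. Pi16-only cells were 17 of 277 and 179 of 1902 CD81+ FB in the small intestine. In the colon they were 33 of 132 and 740 of 1629. Fst in Ackr4-only cells was at 8.33 and 4.22 CPM in the small intestine and 2.69 and 9.13 CPM in the colon. In Pi16-only cells it was at 0 and 3.58 CPM, and 135 and 44.6 CPM. The part of this make-up in the Fst difference was not tested. None of 5 members was called in Fgfr2+ FB (0.374% of all genes; 2 members at an unadjusted p under 0.05) and none of 3 in Igfbp5+/CD90+ FB (0.727%; 1 member), with 0 called by DESeq2 in both. In SMC none of 3 was called by edgeR (0.633% of all genes; 1 member at an unadjusted p under 0.05) and 1 by DESeq2, and in pericytes none of 3 and 0% of all genes were called, with 0 members at an unadjusted p under 0.05 and 0 by DESeq2.

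**Figure D4:**
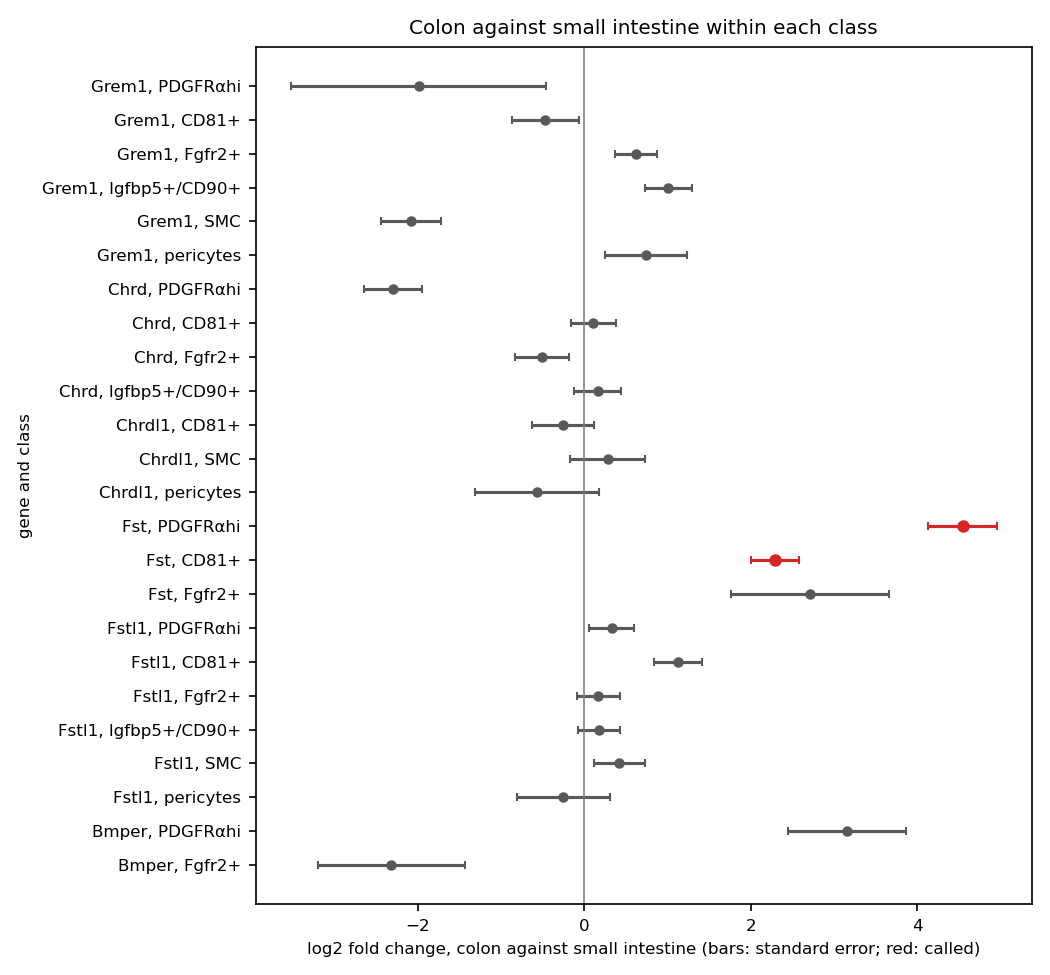
Colon to small intestine log2 fold change of each tested member in each class, with its standard error, by edgeR's quasi-likelihood test on 2 against 2 libraries, with called values in red. Fst in PDGFRahi FB (4.55) and in CD81+ FB (2.29) were called, and Chrd in PDGFRahi FB (-2.30) and Grem1 in SMC (-2.08) were not.

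Against the mean of the other classes Fst was higher in PDGFRahi FB by 5.45 (SE 0.33, adjusted p = 5e-10) and in CD81+ FB by 3.51 (SE 0.44, adjusted p = 6.7e-06). These fold changes depend on the prior count, since SMC had 6 and pericytes 1 Fst UMI over all libraries. The Fgfr2+ and Igfbp5+/CD90+ FB had 0 to 2.54 CPM. The contrast averages over both intestines. In the small intestine PDGFRahi FB had 10.6 and 8.29 CPM, near the 6.94 and 6.56 CPM of CD81+ FB. There CD81+ FB held 34.7% and 39.4% of all Fst UMIs of their libraries and PDGFRahi FB 32.7% and 24.2%.

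Fst and Chrd were then compared cell by cell within colonic PDGFRahi FB. A Chrd UMI was in 7.25% and 1.44% of the cells with a Fst UMI and in 30.5% and 9.80% of the other cells, although the cells with Fst had more UMIs (medians 12513 against 9959, and 4919 against 3873.5). Fst UMIs were concentrated, as the top 10% of cells held 86.0% and 88.8% of them. A division by Thbd and Cd9, surface proteins, was chosen after the levels had been seen, so no test is given. Cells with a Cd9 UMI and none of Thbd had 369 and 431 CPM of Fst, and cells with a Thbd UMI and none of Cd9 had 40.1 and 93.4 CPM. Cells with both, the largest group in colon replicate 1 (440 of 580 cells) and 1073 of 2577 in colon replicate 2, had 119 and 105 CPM, and the 147 cells with neither in colon replicate 2 had 160 CPM. Chrd was at 4.70 and 5.23 CPM in Cd9-only cells, 56.1 and 38.4 CPM in Thbd-only cells and 38.4 and 31.8 CPM in cells with both. Bmper was at 17.9 and 7.96 CPM in Cd9-only cells, 0 and 0.687 CPM in Thbd-only cells, the latter from 1 UMI, and 1.44 and 0.64 CPM in cells with both. Fst and Bmper were thus highest in Cd9-only cells, and Chrd lowest, among these 3 groups in both libraries. Cd9-only cells were also deeper, with medians of 12888 and 4650.5 UMIs against 7990.5 and 3250.

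Fstl1 was detected widely. It ran from 219 to 743 CPM in every class other than CD81+ FB, and in CD81+ FB from 408 and 501 CPM in the small intestine to 952 and 1208 CPM in the colon. The colon to small intestine difference in CD81+ FB was 1.13 on the log2 scale (SE 0.29, adjusted p = 0.21) and not called, with ratios of 2.33 and 2.41 within replicate numbers. The contrast of CD81+ FB with the other classes was larger in the colon by 0.90 (SE 0.17, adjusted p = 0.0007), the 1 call among 5 members with an estimate, against 5% of all genes. That call was lost without colon replicate 2 (0.78, adjusted p = 0.17) and with clusters in place of the gate (0.77, adjusted p = 0.055). Over both intestines CD81+ FB were higher by 0.82 (SE 0.13) and PDGFRahi FB lower by 0.74 (-0.74, SE 0.15), both under the fold required for a call, and pericytes were called lower (-1.004, SE 0.16, adjusted p = 5.5e-05), a value at the edge of that fold that was called under 3 of 12 alternatives. Endothelial cells of the replicate 1 libraries had 92.6 and 147 CPM of Fstl1, in 30.6% and 44.7% of cells.

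Chrdl1, a chordin relative with BMP-binding domains, had its highest CPM in pericytes in each library with the gate as used. Pericytes had 131, 35.9, 91.2 and 24.7 CPM, from 9, 2, 21 and 3 cells, and SMC had 27.8, 18.2, 32.7 and 22.9 CPM. The pericyte value of colon replicate 2 came from 4 UMIs. It fell to 6.84 CPM with a larger gate margin and to 7.57 CPM with clusters, below SMC at 22.8 and 22.2 CPM. CD81+ FB were in the same range as SMC, at 22.9, 16.8, 23.3 and 14.5 CPM, and held 49.1%, 55.9%, 11.4% and 35.3% of all Chrdl1 UMIs of a library, against 37.7%, 1.68%, 25.5% and 1.45% in pericytes. The remaining FB classes lay between 0 and 2.42 CPM. Chrdl1 was called in every class, more than any other member. It was higher in pericytes by 4.08 (SE 0.37, adjusted p = 3.3e-08), in SMC by 2.25 (SE 0.33, adjusted p = 1.6e-05) and in CD81+ FB by 2.01 (SE 0.28, adjusted p = 9.8e-06). The lower classes were Fgfr2+ FB (-3.01, SE 0.42), PDGFRahi FB (-3.25, SE 0.44) and Igfbp5+/CD90+ FB (-2.07, SE 0.44), the last of which was not called with a larger gate margin or with clusters (adjusted p = 0.27 and 0.29). Clusters gave no Igfbp5+/CD90+ FB in the small intestine libraries, so the cluster value of that class rests on the colon libraries only. No class differed between intestines in a called way, with pericytes at -0.57 (SE 0.74), SMC at 0.28 (SE 0.45) and CD81+ FB at -0.26 (SE 0.37). In pericytes Chrdl1 UMIs sat with Grem1 UMIs: Chrdl1 was in 7 of 7, 1 of 6, 11 of 15 and 2 of 8 cells with Grem1, and in 3.85%, 3.23%, 13.9% and 1.89% of the others. The Grem1-positive pericytes were also deeper in each library, with medians of 6431, 3392.5, 7677 and 3788.5 UMIs against 4623, 1569, 6603.5 and 2061.

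Bmper, a secreted regulator of BMP4 known from blood vessels, was sparse in the 6 classes. Pericytes had 12.2, 0, 40.7 and 37.0 CPM, from 4, 0, 25 and 6 UMIs, the highest value in 3 libraries, while in small intestine replicate 2 Fgfr2+ FB were highest at 4.36 CPM. Pericytes exceeded the mean of the other classes by 3.08 (SE 0.80, adjusted p = 0.0073). Without colon replicate 1 the value was 2.54 and was not called (adjusted p = 0.24). Endothelial markers summed to 47.8 to 567 CPM in pericytes, with 6 of 6 detected. The Cajal cell marker Ano1 was at 296, 144, 205 and 216 CPM with Kit at 0 UMIs, after cells with UMIs of both that scored above every class for these markers had been set apart. The part of endothelial and Cajal cells in the pericyte values of Bmper and Chrdl1 was not tested. Among FB the order of Bmper turned between intestines. Fgfr2+ FB had 9.54 and 4.36 CPM in the small intestine and 2.47 and 0.428 CPM in the colon, while PDGFRahi FB had 0.662 and 0.345 CPM, from 1 UMI in each library, and 4.28 and 3.65 CPM in the colon. Igfbp5+/CD90+ FB were also lower in the colon, at 0.423 and 0.791 CPM against 11.2 and 2.10 CPM in the small intestine. The interaction in that class was -3.10 (SE 0.87, adjusted p = 0.13) and not called. The interaction was 3.67 (SE 0.98, adjusted p = 0.016) in PDGFRahi FB, called under 6 of 11 alternatives, and -2.88 (SE 0.68, adjusted p = 0.040) in Fgfr2+ FB, called under 1 of 10 and lost on leaving out any library (adjusted p = 0.062 to 0.44). Leaving out small intestine replicate 1 took the PDGFRahi FB value to 0.93 (adjusted p = 1), and leaving out small intestine replicate 2 or colon replicate 2 also ended its call (adjusted p = 0.072 and 0.082). In Fgfr2+ FB this was the 1 call among 5 members with an estimate, against 0.467% of all genes. No member was called for an interaction in Igfbp5+/CD90+ FB (0.411% of all genes; 1 member at an unadjusted p under 0.05), SMC (1.18%; 0 members) or pericytes (0.451%; 2 members), and DESeq2 called 0 in each.

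Nog, a high-affinity antagonist of BMP2 and BMP4, was nearly absent from the small intestine, where the libraries held 0 and 8 UMIs in all cells. The colon libraries held 115 and 203. In the 6 classes Nog ranged from 0 to 10.6 CPM, with colonic SMC highest at 3.85 and 10.6 CPM and pericytes at 0 UMIs in all 4 libraries. The SMC values came from 8 and 24 UMIs. With a larger gate margin they were 1.49 and 10.8 CPM, the first below CD81+ FB at 1.56 CPM. With clusters they were 1.47 and 4.12 CPM, beside 3.81 CPM in Fgfr2+ FB of replicate 2. Nog did not pass the filter in any class in the fits as reported, so these gave no class or location test of it. Most of the colonic Nog in replicate 1 came from outside the classes. Kit and Ano1 are genes known from interstitial cells of Cajal, the pacemaker cells of gut muscle. Cells with UMIs of both were set apart from the MSC classes where their score for these 2 markers was above the score of every class. There were 15 and 53 cells set apart in this way in the colon libraries and none in the small intestine libraries. They rest on only these 2 markers and are called Kit+ Ano1+ cells here. They held 96 of the 115 Nog UMIs (83.5%, exact 95% interval 75.4% to 89.7%) in replicate 1 and 73 of 203 (36.0%, 29.4% to 43.0%) in replicate 2. The level was 504 and 322 CPM, and 93.3% and 41.5% of the cells had a Nog UMI (53.3% and 36.0% after thinning, in 15 and 50 cells), with none in 235 and 21 endothelial cells.

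Kit+ Ano1+ cells differed from the classes in other members as well. Bmper stood at 215 and 52.9 CPM and Chrdl1 at 168 and 57.4 CPM, Fst at 31.5 and 35.3 CPM, Grem1 at 57.8 and 35.3 CPM, Chrd at 5.25 and 39.7 CPM and Fstl1 at 163 and 313 CPM. These levels are a description and no test is given, since the cells were singled out after the values had been seen. The levels rest on 2 libraries. Pcp4, Hand1, Cpe and Nog were among the 10 leading genes of these cells in both libraries.

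The genes most like each member over the 24 library-by-class sums were found by Pearson's r of log2(CPM + 1), among 10307 genes of at least 5 CPM that did not serve in the gate. The sums share libraries and depth, so r is a description. Grem1 was closest to Lsamp (0.95), Cd248 (0.93) and Bace2 (0.91), Chrd to Pkd2 (0.85), Hspg2 (0.84) and Sertad4 (0.84), and Chrdl1 to Aoc3 (0.89), Fads3 (0.87) and Sort1 (0.87). Fst was closest to Fgf9 (0.85), Hmgcs1 (0.81) and Chic2 (0.77), Fstl1 to Tspo (0.88), Sema3c (0.86) and S100a10 (0.83), and Bmper to Ube2b (0.76), 1810011H11Rik (0.76) and Hey2 (0.75). No member was among the 3 genes most like another. The highest r between members was that of Chrd and Fst (0.53) and the lowest that of Chrd and Chrdl1 (-0.53). Grem1 had r of -0.27 with Chrd and -0.35 with Fst.

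Other genes of the pathway were followed in a list of 51, of which 42 passed the filter between classes. In PDGFRahi FB 11 were called higher and 7 lower (42.9%, beside 12.3% of all genes), in CD81+ FB 4 and 7 (12% of all genes called), in Fgfr2+ FB 2 and 3 (5.77%), in Igfbp5+/CD90+ FB 2 and 2 (5.49%), in SMC 5 and 6 (14.3%) and in pericytes 9 and 6 (14.8%). The median log2 fold change over the list was 0.05 in PDGFRahi FB and -0.06 in CD81+ FB, beside 0.03 and -0.00081 over all genes, so the calls went both ways.

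Several ligands were called in PDGFRahi FB and CD81+ FB, and others overlapped between them. In PDGFRahi FB Bmp7 (6.06, SE 0.42), Bmp3 (5.95, SE 0.29), Bmp5 (3.53, SE 0.12), the activin subunit Inhba (2.69, SE 0.14) and Bmp2 (2.02, SE 0.38) were higher than in the mean of the other classes. In CD81+ FB Bmp5 (-3.58, SE 0.20), Bmp7 (-3.20, SE 1.03) and Inhba (-1.54, SE 0.22) were lower. Bmp5 was also lower in pericytes (-1.17, SE 0.24). Inhba was also lower in Fgfr2+ FB (-1.29, SE 0.20) and higher in SMC (1.38, SE 0.20). Bmp5, for example, was at 546, 449, 680 and 530 CPM in PDGFRahi FB and at 3.27, 4.20, 14.0 and 11.2 CPM in CD81+ FB, so the class richest in Grem1 was low in this ligand in every library. Bmp2 in the small intestine was at 144 and 181 CPM in PDGFRahi FB and 149.5 and 150.3 CPM in CD81+ FB, so its class call came with the colon values, 1152 and 873 CPM against 165 and 159 CPM. Bmp6 overlapped, at 3.11 to 52.3 CPM in PDGFRahi FB and 1.85 to 44.7 CPM in CD81+ FB. Bmp4 was broad, at 490, 518, 1001 and 861 CPM in PDGFRahi FB and 202, 264, 299 and 253 CPM in CD81+ FB, and was called lower in pericytes (-2.15, SE 0.42).

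Antagonists outside the 7 members also differed between classes. Nbl1, which encodes the DAN antagonist, was higher in PDGFRahi FB (2.60, SE 0.15), at 5603, 2829, 2925 and 1513 CPM, as were the BMP-binding proteins Twsg1 (1.56, SE 0.19) and Crim1 (1.21, SE 0.19). Vwc2, a secreted protein of the chordin family known as brorin, was found in the small intestine, at 56.2 and 40.1 CPM in Igfbp5+/CD90+ FB and 50.1 and 29.1 CPM in SMC, with 0 UMIs in both classes in the colon. It was called lower in the colon in both classes (adjusted p = 0.025 and 0.029). Fgfr2+ FB had 44.2 and 25.7 CPM in the small intestine and 0 UMIs in the colon, which was not called (adjusted p = 0.054).

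Receptors and targets completed the list. The type I receptor Bmpr1b was higher in SMC (3.88, SE 0.43), at 7.28 to 26.5 CPM there. The co-receptor Rgmb was higher in CD81+ FB (1.57, SE 0.17) and lower in PDGFRahi FB (-1.28, SE 0.21), and the tolloid protease Bmp1, which cleaves chordin, was higher in CD81+ FB (1.22, SE 0.15). Id1, a direct target of BMP SMADs, was higher in pericytes (2.67, SE 0.27) and PDGFRahi FB (1.89, SE 0.24). It was lower in CD81+ FB (-1.60, SE 0.32) and in Igfbp5+/CD90+ FB (-1.29, SE 0.31). The levels were 35.1, 30.4, 22.4 and 53.4 CPM in CD81+ FB and 328, 275, 348 and 429 CPM in PDGFRahi FB. The decoy receptor Bambi was higher in CD81+ FB (1.20, SE 0.27) and pericytes (1.16, SE 0.39) and lower in SMC (-1.37, SE 0.40).

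Between intestines, 2 of 41 pathway genes were called higher and 1 lower in colonic PDGFRahi FB (1.21% of all genes). Bmp2 was measured at 144 and 181 CPM in the small intestine and 1152 and 873 CPM in the colon (2.76, SE 0.31, adjusted p = 0.036), without overlap. Bambi, a decoy receptor, was also called higher, with values that round to the same figures (2.76, SE 0.31, adjusted p = 0.036), from 6.62 and 8.64 to 54.3 and 42.3 CPM. Inhbb, an activin B subunit, was lower in the colon, at 110 and 89.8 against 4.12 and 2.28 CPM (-4.86, SE 0.39, adjusted p = 0.025). In the same cells Inhba, the activin A subunit, had 53.6, 83.3, 58.4 and 109 CPM, overlapping between intestines. In Igfbp5+/CD90+ FB Htra1, a serine protease, was higher in the colon (2.46, SE 0.28, adjusted p = 0.045), and in SMC Chrdl2, another chordin-like antagonist, had 0 and 3.64 CPM in the small intestine and 58.8 and 91.8 CPM in the colon (adjusted p = 0.046). edgeR called no pathway gene between intestines in CD81+ FB (39 tested, 5 at an unadjusted p under 0.05, 0 by DESeq2), in Fgfr2+ FB (43 tested, 16 and 5) or in pericytes (25 tested, 1 and 0).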

How the data were processed

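MSC of the lamina propria were profiled in 4 droplet libraries, 2 per intestine. The authors used Cell Ranger with the mm10 build (3.0.2 for replicate 1 and 3.1.0 for replicate 2 per the file headers), and deposited unnormalized UMI counts for each gene and barcode. The submitters' notes also name Seurat 3. A 3′ or a 5′ kit was used, and which library had which is not given in the sources used here. The members and gene lists were chosen with earlier results of these data known.

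Barcodes needed 500 genes, 1000 UMIs and no more than 10% of mitochondrial UMIs, and scrublet in scanpy 1.11.5 (Python 3.11.15) removed 2, 1192, 15 and 502 doublets. Each cell was placed in the class with the highest mean marker score (score and margin of at least 0.25), with cells of other types set apart by 2 or 3 markers, and 10728 cells stayed unassigned. UMIs were summed per library and class. edgeR 4.0.16 (R 4.3.3; filterByExpr, TMM, robust quasi-likelihood test) was fitted over all genes, and p-values were adjusted by Benjamini-Hochberg over all genes tested in a contrast. The SE is the absolute log2 fold change divided by the square root of F. Classes were compared with library as a block, and intestines within a class without one. Since replicates are libraries of pooled mice, p-values measure only the spread between these libraries, and intervals cover counting error only. DESeq2 1.42.0, limma 3.58.1, other filters, gates and left-out libraries were alternatives. The fits were tested on simulated data. All 7 members are named, with pathway genes where called, apart from a gene not reported here, and the 3 genes most like each member. Promoter windows came from RefSeq (GRCm38.p6).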

Additional observations from a re-analysis of the deposited data

Results flagged for a closer look

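The contrast of a class with the mean of the other classes differed between intestines, by the interaction term of edgeR's quasi-likelihood test, for 4 member and class pairs. The colon minus small intestine value on the log2 scale was 3.67 for Bmper in PDGFRahi FB, -2.24 for Chrd in PDGFRahi FB, 0.90 for Fstl1 in CD81+ FB and -2.88 for Bmper in Fgfr2+ FB. Both Bmper values rest on few UMIs, since small intestinal PDGFRahi FB held 1 Bmper UMI per library and colonic Fgfr2+ FB 10 and 3.

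Kit+ Ano1+ cells, which were left out of the main comparisons, carried members above the level of every class in the same colon library. Nog stood at 504 CPM in colon replicate 1 and 322 CPM in colon replicate 2, Bmper at 215 and 52.9 CPM, and Chrdl1 at 168 and 57.4 CPM. The libraries held 15 and 53 such cells.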

How the results depend on the processing

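Between intestines 2 of 24 pairs were called by the test as reported. The count was 4 with DESeq2 and 4 with no low-count filter, which added Chrd in PDGFRahi FB and Grem1 in SMC, 1 with doublets not removed and 0 to 4 with a library left out, the lowest without small intestine replicate 2. With the replicate number as a block it was 8, adding Grem1 and Bmper in PDGFRahi FB and Bmper and Fst in Fgfr2+ FB to those 4. The labels do not say that a replicate number marks the same mice or day, so the libraries are taken to share only a number, and with 2 pairs per class the deviations of same-numbered libraries correlated at 0.536 to 0.749 over genes. The cause of these moves was not tested. Over all genes and classes 397 calls were made as reported, 1429 with DESeq2, 1928 with no filter, 1679 with limma-voom, 2827 with the block, 664 with clusters and 210 to 876 with a library left out. For the difference of the class contrast between intestines 4 pairs were called, against 10 with no filter, 2 with clusters, 2 with doublets not removed and 1 to 3 with a library left out, and over all genes 1848 calls against 3239 with no filter and 817 to 1192 with a library left out. Calls between classes were 14 pairs, with 11 to 18 under every alternative run. Over all called values, 233 recomputed values kept their direction, of which 189 were still called and 44 were not. The seventh class and the splits by marker genes were chosen after seeing the data.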

Other observations

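Cells outside the 6 classes also held members. The cells that no class took, 400 and 6053 in the small intestine and 392 and 3883 in the colon, had Grem1 at 228, 364, 412 and 420 CPM, between the levels of CD81+ FB and PDGFRahi FB of the same library, and Fst at 2.22, 1.65, 2.09 and 24.3 CPM. The few glial cells of the replicate 1 libraries, 6 in the small intestine and 7 in the colon, had Fst at 249 CPM from 10 UMIs and 169 CPM from 12 UMIs. These libraries had been sorted against L1CAM, a glial surface protein, so the cells are a remnant, and the replicate 2 libraries held none.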
